A study of Mus musculus with 8 samples.

Results

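A set of 10 genes of the Toll-like receptor system, Tlr1, Tlr2, Tlr4, Tlr6, Tlr7, Tlr9, the adaptor Myd88, the co-receptor Cd14 and the RP105 complex genes Cd180 and Ly86, was described among 18193 genes measured on 8 Affymetrix mouse arrays. They were listed by symbol, and all 10 had at least 1 probe set that the platform annotation assigns to that symbol alone. The cells were CD45.1+ marrow cells that do not carry the leukaemia transgenes, taken from mouse chimeras that also received CD45.2+ marrow. In leukemic mice the CD45.2+ marrow carried BCR-ABL, a fusion tyrosine kinase that drives chronic myeloid leukaemia, and SCL-tTA, a transactivator driven by Scl regulatory sequence that switches BCR-ABL on once tetracycline is removed. Normal mice were made without BCR-ABL, and whether their marrow carried SCL-tTA is not stated. Per the series' design text, cells were sorted 4 weeks after that removal. Hosts were themselves CD45.1+, so sorted cells could descend from the transplanted or from the host marrow. Sorting gave a pair of fractions: KSL (lineage-negative, Kit+, Sca-1+ progenitors) and, within that gate, HSC (CD150+ and CD48-, the long-term stem cell fraction). This gave 4 groups of 2 arrays, namely HSC normal, HSC leukemic, KSL normal and KSL leukemic. The sources used here give no ages or strains, and nothing states that replicates came from separate animals, so p-values measure the spread between these samples, which may be technical.

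Toll-like receptors recognise conserved microbial molecules and released self molecules. Receptors at the cell surface (Tlr1, Tlr2, Tlr4 and Tlr6) bind lipopeptides and lipopolysaccharide, those in endosomes (Tlr7 and Tlr9) bind nucleic acids, and most signal through Myd88 to NF-kB. Cd14 hands lipopolysaccharide and other ligands to the surface receptors, while Cd180 (RP105), a Toll-like receptor relative without a signalling domain, is held at the surface by its secreted partner Ly86 (MD-1). Haematopoietic stem and progenitor cells are known to express several of these receptors and to respond to their ligands directly.

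Ly86 had the largest difference of the 10 genes between HSC and KSL, in normal and in leukemic mice, and Cd180 encodes the other chain of its complex, so the bases just before their start sites are shown. Both lie on mouse chromosome 13, plus strand. RefSeq windows of build GRCm38.p6, 250 bases each, end at the base before the annotated start (Ly86 chr13:37345095-37345344, Cd180 chr13:102693297-102693546).
Ly86: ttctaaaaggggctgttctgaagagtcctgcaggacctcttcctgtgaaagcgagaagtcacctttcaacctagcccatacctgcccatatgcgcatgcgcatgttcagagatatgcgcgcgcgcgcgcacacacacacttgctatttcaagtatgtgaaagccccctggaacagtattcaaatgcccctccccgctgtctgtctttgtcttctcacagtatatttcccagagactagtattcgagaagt
Cd180: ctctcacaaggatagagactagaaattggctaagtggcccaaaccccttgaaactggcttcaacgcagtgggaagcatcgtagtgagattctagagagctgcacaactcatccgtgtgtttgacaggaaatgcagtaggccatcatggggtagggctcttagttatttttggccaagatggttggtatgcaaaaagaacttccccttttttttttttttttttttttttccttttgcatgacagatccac

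Capitals would mark a match to any of the motifs searched on both strands, and neither window held one. Windows were found for 7 of the 10 members, 10 windows in all with alternative starts. The PU.1 core GAGGAA was in 2 of them (Tlr1 and Tlr9) against 23.3% of all windows of that length, and the C/EBP motif TTNNGCAA in 1 (Tlr6) against 9.56%. The interferon-stimulated element, searched as GAAA, any 2 bases and GAAA, was in 2 (Myd88 and Tlr6) against 2.98%. The NF-kB motif, searched as GGGA, any base and TTTCC, was in 0 against 0.356%. The ETS-IRF composite, searched as GGAA, any 2 bases and GAAA, can overlap the interferon-stimulated element and was in 0 against 2.3%. In the RefSeq gene order Tlr1 and Tlr6 are direct neighbours on chromosome 5, as Tlr7 and Tlr8 are on the X chromosome.

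Values are log2 expression values as the authors deposited them, with a floor at 3.32, below which nothing was recorded. Array medians lay between 5.74 and 5.86. Fold changes were fitted with limma on all 8 arrays, errors after a difference are standard errors of that fit (n = 2 arrays a group), and adjusted p-values are Benjamini-Hochberg over all 18193 genes. The HSC arrays were the noisier ones, with a median replicate SD over genes of 0.20 and 0.21 against 0.11 and 0.09 in KSL. The sort labels matched their markers: Slamf1 (CD150) was at 8.23 to 9.36 in HSC against 5.27 to 7.06 in KSL, Cd48 at 6.19 to 8.12 against 10.17 to 10.44, and 11 of 11 measured long-term HSC genes were higher in HSC of normal mice. In each normal group replicate 1 showed sex-linked genes at male levels, and Tlr7 is X-linked. Each group enters 2 of the 4 differences below, so those differences share arrays. In such bulk samples, more cells of a type and more RNA per cell cannot be told apart.

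**Figure D1:**
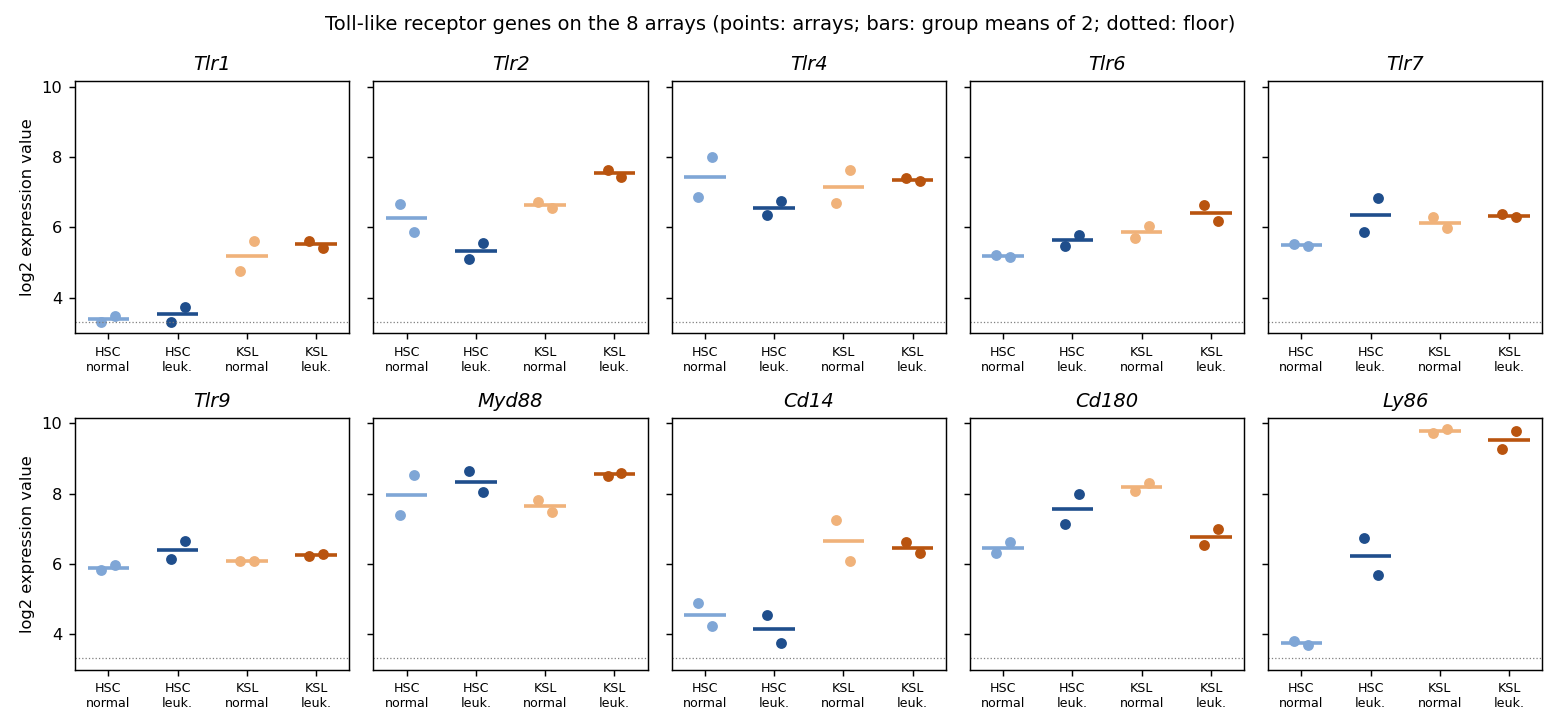
Log2 expression values (vertical axis) of the 10 genes on each array, by group on the horizontal axis. Points are arrays, bars are means of 2 arrays and the dotted line is the floor at 3.32. Ly86 steps from 3.71 and 3.80 in HSC of normal mice through 5.70 and 6.75 in HSC of leukemic mice to at least 9.28 in KSL, and levels cannot be compared between panels because each gene has its own probes.

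The first question was how the stem cell fraction differed from KSL. In normal mice Ly86 stood far apart: it was at 3.80 and 3.71 in HSC, close to the floor, and at 9.73 and 9.83 in KSL. It was 65.2-fold lower in HSC (log2 difference -6.03 ± 0.38, limma adjusted p = 0.0149). This was the 1 member of 10 that passed, where 1.8% of all genes passed and 1% were lower. At an unadjusted p under 0.05 there were 5 (Ly86, Tlr1, Cd180, Cd14 and Tlr6), beside 16.2% of all genes. The call was lost when either KSL normal array (adjusted p = 0.0726 without replicate 1 and 0.0852 without replicate 2) or either KSL leukemic array (0.0691) was left out. It was also lost without both male arrays (0.132) and in a fit of the 4 normal arrays alone (0.0759), while the difference itself stayed between -6.12 and -5.98 in all settings.

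Other members were lower in HSC of normal mice without passing. Cd14 was at 4.89 and 4.23 in HSC against 7.24 and 6.10 in KSL, a difference of -2.11 ± 0.51 (adjusted p = 0.152). Tlr1, which pairs with Tlr2 to bind triacylated lipopeptides, was at 3.32 (the floor) and 3.48 in HSC against 4.76 and 5.62 in KSL (-1.78 ± 0.33, adjusted p = 0.0893). Neither gene's HSC arrays reached its KSL arrays, and with 1 HSC array at the floor the Tlr1 difference is a lower bound in size. Cd180 was at 6.30 and 6.63 in HSC against 8.08 and 8.31 in KSL (-1.73 ± 0.35, adjusted p = 0.108). Tlr6, which pairs with Tlr2 for diacylated lipopeptides, was at 5.20 and 5.16 against 5.68 and 6.03. Smaller gaps separated Tlr7 (-0.64 ± 0.34) and Tlr9 (-0.18 ± 0.18).

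In all, 7 of 10 members had HSC arrays wholly below KSL arrays and 0 wholly above, where 43.5% of all genes lay apart, 24.2% above and 19.3% below. The median difference of the 10 was -0.66, against 0.00 over all genes. Tlr2 (6.66 and 5.86 in HSC, 6.73 and 6.54 in KSL), the lipopolysaccharide receptor Tlr4 (6.87 and 8.0, 6.69 and 7.62) and Myd88 (7.38 and 8.54, 7.82 and 7.49) overlapped between the fractions. For these 3 the sign of the difference turned when single arrays were left out.

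Most lists of markers of more mature cells were lower in HSC as well. Of the granulocyte-monocyte progenitor list (Prtn3, Mpo, Elane and others), 13 of 13 measured genes were lower in HSC of normal mice, 6 of them past limma's threshold, with a median of -4.05. In leukemic mice 13 of 13 were lower, 6 past the threshold, with a median of -2.41. Of all genes 1% in normal and 2.74% in leukemic mice were lower past that threshold. Progenitor and lymphoid priming genes (9 of 10 measured, led by Ighm, Cd34 and Cd48) had 9 of 9 lower in both, with medians of -2.44 in normal and -1.07 in leukemic mice. Mast cell and basophil genes had 8 of 9 lower in both (medians -2.49 and -2.95), and T and NK cell genes 6 lower and 1 higher in both (-1.88 and -0.58). Neutrophil and monocyte genes had 11 of 15 lower in normal mice (median -1.07) and 8 of 15 in leukemic mice (-0.28). Macrophage genes had 10 and 8 of 12 lower (-0.79 and -0.29), and dendritic cell genes 8 and 6 of 10 (-0.27 and -0.20). B cell genes had 7 of 11 lower in normal mice (-0.32) and 4 in leukemic mice (0.09). Megakaryocyte genes lay the other way, with 7 higher and 0 lower in both (1.25 and 2.92), and erythroid genes had 5 of 8 higher in both (0.13 and 0.47). The part of these cells in the differences of the Toll-like receptor genes between the fractions was not tested.

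In leukemic mice 3 members passed between the fractions, all lower in HSC, where 5.86% of all genes passed and 2.74% were lower. Ly86 was at 6.75 and 5.70 in HSC against 9.28 and 9.77 in KSL, 9.82-fold lower (-3.30 ± 0.38, limma adjusted p = 0.0231). Tlr2 was at 5.09 and 5.54 in HSC against 7.64 and 7.44 in KSL, 4.66-fold lower (-2.22 ± 0.32, adjusted p = 0.0346). Tlr1 was at the floor (3.32) and at 3.74 in HSC against 5.63 and 5.41 in KSL, at least 3.96-fold lower because of the array at the floor (fitted difference -1.99 ± 0.33, adjusted p = 0.0441). For all 3 the HSC and KSL arrays lay apart by more than the spread within either group. At an unadjusted p under 0.05 there were 5, these 3 with Cd14 and Tlr6, beside 23% of all genes. Leaving out 1 array changed these calls. Without either HSC normal array Ly86 and Tlr2 passed, without either HSC leukemic array Ly86 alone, without either KSL normal array Tlr1 alone, and without either KSL leukemic array none of the 3 (adjusted p from 0.125 to 0.221). None of the 3 passed in a fit of the 4 leukemic arrays alone (adjusted p from 0.0794 to 0.113), although each difference kept its sign in all settings. Leaving out both male arrays is the same test here. Each normal group then keeps 1 array, which adds nothing to the measured spread.

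Cd14 was again low in HSC of leukemic mice, at 4.56 and 3.77 against 6.61 and 6.31 in KSL (-2.30 ± 0.51, adjusted p = 0.0828). Tlr6 was at 5.48 and 5.79 against 6.63 and 6.18 (-0.77 ± 0.21, adjusted p = 0.126). Cd180 took the other side here, with HSC arrays at 7.13 and 8.0 above KSL arrays at 6.55 and 7.01 (0.79 ± 0.35, adjusted p = 0.275), and it was the 1 member of 10 whose HSC arrays lay wholly above. By the probe sets used, Tlr7, Tlr9 and Myd88 overlapped between the fractions of leukemic mice, and their sign turned when single arrays were left out. Arrays lay apart for 7 of 10 members, 1 above and 6 below, against 51.4% of all genes, 28.2% above and 23.2% below, and the median difference was -0.79 against 0.01 over all genes.

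**Figure D2:**
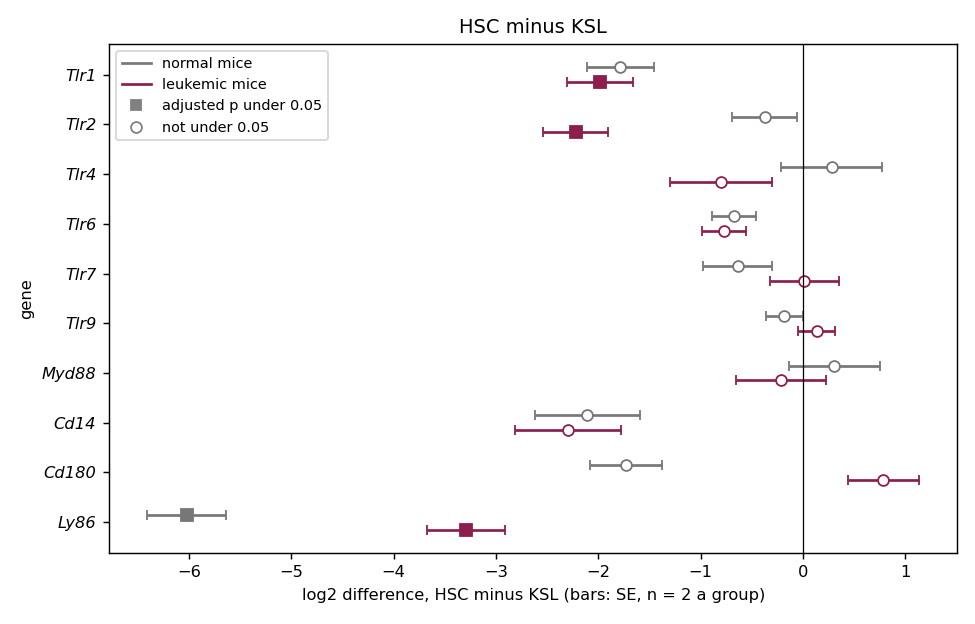
Log2 difference HSC minus KSL (horizontal axis) for each gene (vertical axis) in normal and in leukemic mice, with standard errors of the fit. Filled squares mark adjusted p under 0.05, which are Ly86 in normal mice and Ly86, Tlr1 and Tlr2 in leukemic mice; Cd180 lies left of 0 in normal mice (-1.73) and right of 0 in leukemic mice (0.79).

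The next question was whether HSC without the transgenes differed when leukaemic cells shared their marrow. Limma passed 0 of 10 members after adjustment, where 0.0989% of all genes passed. At an unadjusted p under 0.05 there were 4 (Ly86, Cd180 and Tlr9 higher, Tlr2 lower), beside 13.8% of all genes. Arrays of the groups lay apart for 7 of 10 (5 higher and 2 lower in leukemic mice), against 32.7% of all genes, 16% higher and 16.7% lower, and the median difference was 0.42 against 0.00 over all genes.

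Both chains of the RP105 complex had higher values in HSC of leukemic mice, without passing. Ly86 was at 6.75 and 5.70 against 3.80 and 3.71 in normal mice, a 5.54-fold difference (2.47 ± 0.38, adjusted p = 0.135). No HSC array of a leukemic mouse came within the range of the normal ones, yet both stayed below every KSL array. With HSC leukemic replicate 2 left out the difference was 2.99 and passed (adjusted p = 0.0436, 1 array against 2), and over all left-out arrays it ran from 1.95 to 2.99 with adjusted p up to 0.277. Cd180 was at 7.13 and 8.0 against 6.30 and 6.63 (1.10 ± 0.35, adjusted p = 0.292).

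Means of the endosomal receptors lay above normal as well in leukemic-mouse HSC, by less. Tlr7, a sensor of single-stranded RNA, was at 5.87 and 6.83 against 5.53 and 5.46 (0.86 ± 0.34, adjusted p = 0.376). Tlr9, a sensor of unmethylated CpG DNA, was at 6.13 and 6.66 against 5.83 and 5.96 (0.50 ± 0.18, adjusted p = 0.345). Replicate 2 of HSC leukemic was the highest of the 8 arrays for both genes, and the replicates of that group differed by more than the gap from normal mice to replicate 1. Without HSC leukemic replicate 1 the Tlr9 difference was 0.76 and passed (adjusted p = 0.0456). For X-linked Tlr7 the male HSC normal array read 5.53 and the other 5.46.

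Surface receptors lay on both sides in HSC. Tlr2 was at 5.09 and 5.54 in leukemic against 6.66 and 5.86 in normal mice (-0.94 ± 0.32, adjusted p = 0.313), and Tlr4 at 6.36 and 6.75 against 6.87 and 8.0 (-0.88 ± 0.50, adjusted p = 0.528). Without the male HSC normal array the Tlr2 difference was -0.54. Tlr6 lay the other way, at 5.48 and 5.79 against 5.20 and 5.16 (0.46 ± 0.21, adjusted p = 0.449). Tlr1 stayed at or near the floor on all 4 HSC arrays. Myd88 (8.63 and 8.04 against 7.38 and 8.54) and Cd14 (4.56 and 3.77 against 4.89 and 4.23) overlapped, and the sign of the Tlr1, Myd88 and Cd14 differences turned when single arrays were left out.

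Myeloid marker genes had higher values beside the RP105 genes in HSC. Of the granulocyte-monocyte progenitor list (13 of 14 genes measured), 12 were higher and 1 lower in HSC of leukemic mice (median 1.43). In this list 0 genes passed limma's adjusted threshold and 8 had an unadjusted p under 0.05, beside 13.8% of all genes. The list's summed linear level was 2949 and 3463 in HSC normal, 6479 and 8718 in HSC leukemic, and 36790 to 52600 in KSL, and 0 of its genes were at the floor. Ly86 had the same order, with HSC normal lowest, HSC leukemic between and KSL highest. By mean log2 level the mast cell and basophil list had this order too. It was at 5.05 and 5.36 in HSC normal, 5.51 and 6.40 in HSC leukemic and 7.19 to 8.34 in KSL. Its summed levels overlapped between the HSC groups. So ordered as well was the T and NK cell list, at 4.78 and 5.005, then 5.09 and 5.21, then 5.86 to 6.60. Neutrophil and monocyte genes (15 of 17 measured, led by S100a8, S100a9 and Csf1r, the last of which, like Fcgr3, is also in the first list) were higher for 15 of 15 (median 1.99; 0 and 4 by the same limma thresholds). Their summed level differed between the normal replicates, at 10480 and 832.8, against 20140 and 13850 in HSC leukemic. Ly86 was at 3.80 and 3.71 on those normal arrays, and the part of these cells in its difference was not tested.

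Markers of other cells that carry these receptors had smaller medians. B cell genes (11 of 12 measured, led by Cd79b, Igll1 and Vpreb1) had 7 higher and 3 lower in HSC of leukemic mice, median 0.14. At an unadjusted p under 0.05 there were 3 higher and 0 lower, beside 13.8% of all genes. The pre-B cell receptor gene Igll1 was at 8.07 and 8.70 in HSC leukemic against 5.98 and 5.84 in HSC normal, and Cd79b at 8.28 and 8.52 against 7.38 and 6.94, both with arrays apart, while Vpreb1 was at 5.03 and 5.51 against 5.75 and 9.23. The list's summed levels were 512.5 and 1031 in HSC normal against 891.4 and 1143, and Ms4a1 (CD20) was at the floor on all 8 arrays. By mean log2 level the B cell list was at 5.14 and 5.45 in HSC normal against 5.50 and 5.615 in HSC leukemic, with arrays apart. Dendritic cell genes (10 of 11 measured, led by Tcf4, Bst2 and Flt3) had 4 higher and 6 lower, median -0.04, with sums of 2100 and 1730 against 2384 and 1603. Macrophage genes (12 measured, led by Cd68, Vcam1 and Cd163) had 5 higher and 7 lower, median -0.24, with sums of 542 and 774.7 against 450 and 680.2. The macrophage marker Adgre1 (F4/80) was at the floor on both HSC leukemic arrays and on 1 HSC normal array.

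Long-term HSC genes (11 of 12 measured, led by Kit, Meis1 and Hlf) had 3 higher and 8 lower in HSC of leukemic mice, median -0.49. Arrays lay wholly below normal for 6 and above for 0 of these genes, against 16.7% and 16% of all genes. Their summed levels were 7993 and 7483 in HSC normal against 7387 and 4909. Progenitor and lymphoid priming genes had 3 higher and 6 lower, median -0.13. Further lists included mast cell and basophil genes (9 of 10 measured, led by Gata2, Hdc and Mcpt8), which had 8 higher and 1 lower, median 0.67. T and NK cell genes (9 of 11 measured, led by Nkg7, Cd4 and Cd3d) had 5 higher and 2 lower, median 0.34, and Ncr1 and Gzma were at the floor on all 8 arrays. Megakaryocyte genes (8 of 9 measured, led by Pf4, Gp1bb and Itga2b) had 6 higher and 1 lower, median 0.47. Erythroid genes (8 of 10 measured, led by Tfrc, Car1 and Ermap) had 1 higher and 7 lower, median -0.15, and HSC normal replicate 1 had the highest sum, 6969 against 1126 for replicate 2. RNA control probes also had other values in the HSC groups. The 3 prime minus 5 prime difference for Gapdh was 0.78 and 0.83 in HSC normal against 1.19 and 1.03 in HSC leukemic, and for Tfrc -2.04 and -1.74 against -0.36 and -0.75. For Actb it lay the other way, at -0.37 and -0.38 against -0.42 and -0.50. The part of these in the differences of the Toll-like receptor genes was not tested.

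**Figure D3:**
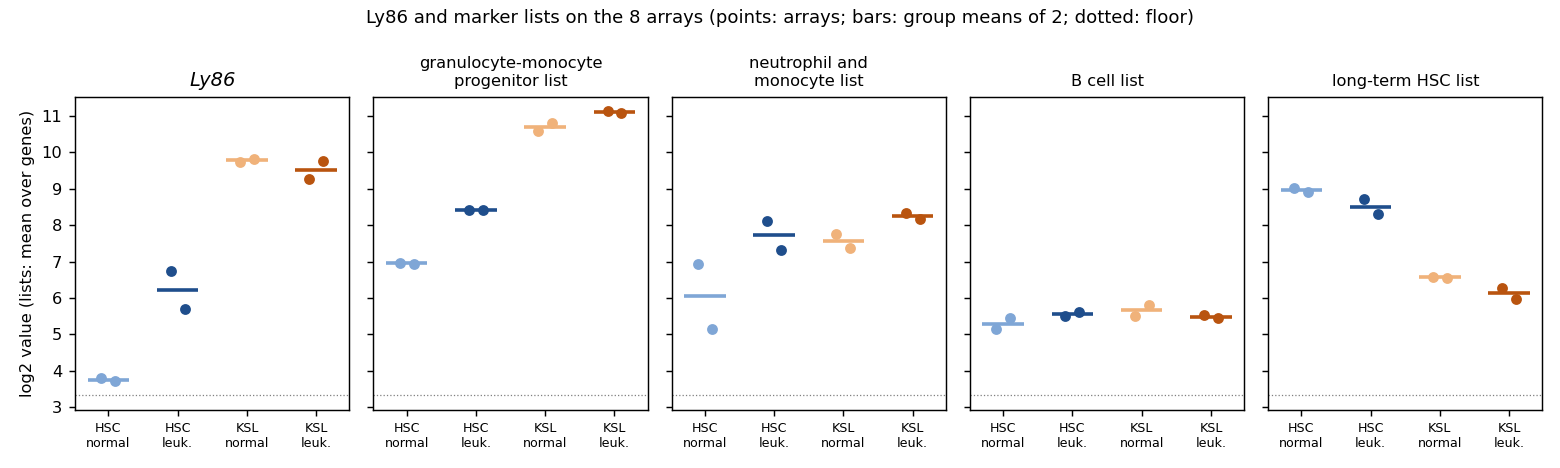
Log2 value of Ly86 and the mean log2 level of 4 marker lists (vertical axis) on each array, by group on the horizontal axis; points are arrays, bars are means of 2 arrays and the dotted line is the floor. Ly86 and the granulocyte-monocyte progenitor list (6.97 and 6.93, then 8.41 on both arrays, then 10.6 or more) share the order HSC normal, HSC leukemic, KSL. The mast cell and basophil list and the T and NK cell list, not drawn, had this order too. The B cell list was at 5.14 and 5.45 in HSC normal, 5.50 and 5.615 in HSC leukemic and 5.44 to 5.82 in KSL.

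The same question in KSL gave 0 of 10 members past limma's threshold, where 0.044% of all genes passed. At an unadjusted p under 0.05 there were 2, Cd180 lower and Tlr2 higher, beside 7.95% of all genes. Cd180 was at 6.55 and 7.01 in KSL of leukemic mice against 8.08 and 8.31 in KSL of normal mice, 2.67-fold lower (-1.42 ± 0.35, adjusted p = 0.422). Its partner Ly86 was at 9.28 and 9.77 against 9.73 and 9.83, and its arrays overlapped (-0.26 ± 0.38, adjusted p = 1.00). So in KSL the arrays of leukemic mice lay apart from normal for 1 gene of the pair.

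Tlr2 was at 7.64 and 7.44 in KSL of leukemic mice against 6.73 and 6.54 (0.91 ± 0.32, adjusted p = 0.589), and Myd88 at 8.51 and 8.58 against 7.82 and 7.49 (0.89 ± 0.44, adjusted p = 0.78). Tlr6, at 6.63 and 6.18 against 5.68 and 6.03, also lay apart (0.55 ± 0.21, adjusted p = 0.643). Small gaps separated Tlr7 (6.37 and 6.30 against 6.29 and 5.97) and Tlr9 (6.24 and 6.28 against 6.08 and 6.08). Tlr1, Tlr4 and Cd14 overlapped, with a sign that turned when single arrays were left out. Arrays lay apart for 6 of 10 members, 5 higher and 1 lower, against 44.5% of all genes, 20.5% higher and 24.1% lower, and the median difference was 0.20 against 0.00 over all genes.

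Marker lists also had other values in KSL of leukemic mice. Progenitor and lymphoid priming genes had 0 higher and 9 lower (median -1.17), with 5 lower at an unadjusted p under 0.05, beside 7.95% of all genes. Mast cell and basophil genes had 8 higher and 1 lower (1.14). Megakaryocyte genes had 0 higher and 7 lower (-0.76), T and NK cell genes 1 and 6 (-0.62), dendritic cell genes 3 and 7 (-0.48) and macrophage genes 3 and 9 (-0.42). Neutrophil and monocyte genes had 13 higher and 2 lower (0.59) and granulocyte-monocyte progenitor genes 11 and 2 (0.44). Erythroid genes had 4 and 4 (-0.55), long-term HSC genes 2 and 9 (-0.36) and B cell genes 3 and 7 (-0.05). In these lists 0 genes passed limma's threshold, and their part in the differences of the Toll-like receptor genes in KSL was not tested.

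**Figure D4:**
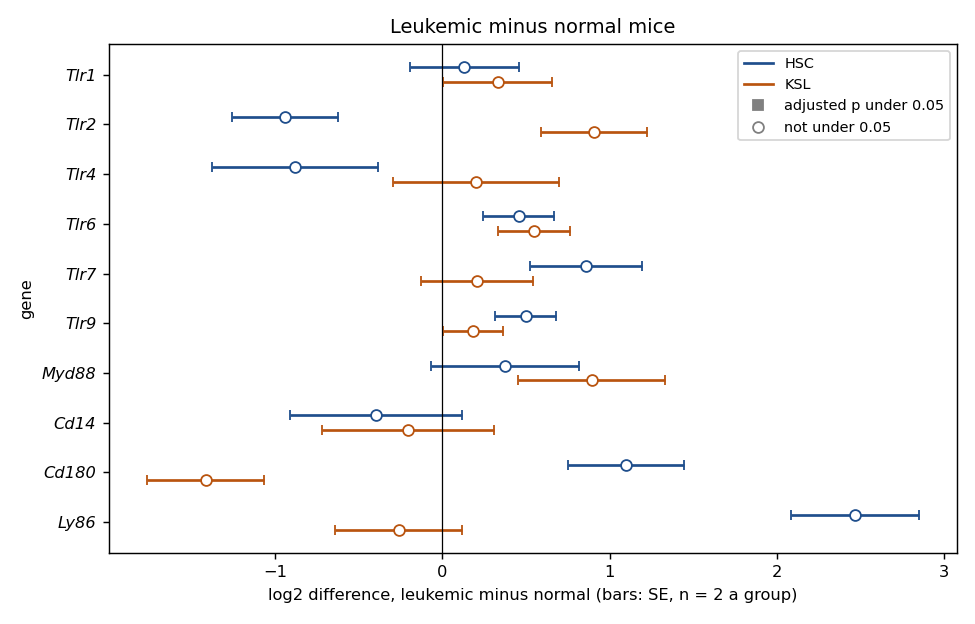
Log2 difference leukemic minus normal (horizontal axis) for each gene (vertical axis) in HSC and in KSL, with standard errors of the fit. Open circles throughout show that no gene had an adjusted p under 0.05; Tlr2 (-0.94 in HSC, 0.91 in KSL) and Cd180 (1.10 and -1.42) lie on opposite sides of 0.

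Whether the contrast of leukemic and normal mice differed between the fractions was tested with limma's interaction term, in which the KSL value is taken from the HSC value. Limma passed 0 of 10 members, where 0.0055% of all genes passed, and 3 had an unadjusted p under 0.05 beside 9.09% of all genes. These were Ly86 (2.73 ± 0.54, adjusted p = 0.313), Cd180 (2.52 ± 0.49, adjusted p = 0.313) and Tlr2 (-1.85 ± 0.45, adjusted p = 0.376). The KSL gate contains the HSC fraction, so the arrays of the fractions may share cells of a type.

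Over the 4 groups the members took different orders. Tlr1 and Cd14 had both KSL groups, which overlapped, above both HSC groups, which overlapped as well. Ly86 ran from KSL normal and KSL leukemic, which overlapped, through HSC leukemic to HSC normal, each of the latter apart from its neighbour. Cd180 ran from KSL normal through HSC leukemic to KSL leukemic, each apart, with HSC normal overlapping the last. Tlr6 and Tlr2 were highest in KSL leukemic and next in KSL normal, which overlapped with the third group in both. Tlr7 and Tlr9 had HSC leukemic and KSL leukemic highest and overlapping, then KSL normal, then HSC normal, with the last 3 apart from one another. Myd88 and Tlr4 had no neighbouring pair of groups apart. Of the 45 pairs of members, Tlr7 and Tlr9 had the most similar profiles, with a root mean square difference of 0.24 log2 units between gene-centred values over the 8 arrays, and Tlr4 and Ly86 the least (2.56).

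Among all genes, those nearest to Ly86 by this measure were Tifab (0.38), a TRAF6-interacting inhibitor gene, BC035044 (0.53) and Atp8b4 (0.57), a phospholipid flippase gene. Tifab was at 4.69 and 4.56 in HSC normal, 7.26 and 6.41 in HSC leukemic and 9.40 to 10.13 in KSL. Nearest to Tlr1 were Fuca2 (0.20), Gdpd3 (0.23) and Rab7b (0.25), and nearest to Cd14 were Cd33 (0.33), St8sia4 (0.33) and Nfil3 (0.35). With 8 arrays in 4 groups such nearness describes these arrays alone.

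Probe sets of 1 gene disagreed for Tlr4, which had 4, and for Tlr7, which had 3. For Tlr4 the probe set used, the brightest, gave a KSL difference of 0.20 between leukemic and normal mice. The other Tlr4 probe sets above the floor gave 0.92 (7.35 and 7.33 against 6.31 and 6.51) and 1.42 (5.66 and 5.47 against 4.44 and 3.86), both with arrays apart, and the remaining one was at the floor on all 8 arrays. In HSC all 3 gave lower means in leukemic mice, by -0.88, -0.49 and -0.78. With all probe sets of a gene averaged, Tlr4 passed between the fractions of leukemic mice (-0.95, adjusted p = 0.0102), against -0.80 ± 0.50 (adjusted p = 0.427) for the brightest. For Tlr7 the probe set used and 1 other, which target the same transcript record, gave HSC differences of 0.86 and 0.96, while the third, of another record, gave 0.12, at 3.69 and 3.73 against 3.68 and 3.50. So for Tlr7 the size of the HSC difference depended on the probe set. The other 8 members had 1 probe set each.

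**Figure D5:**
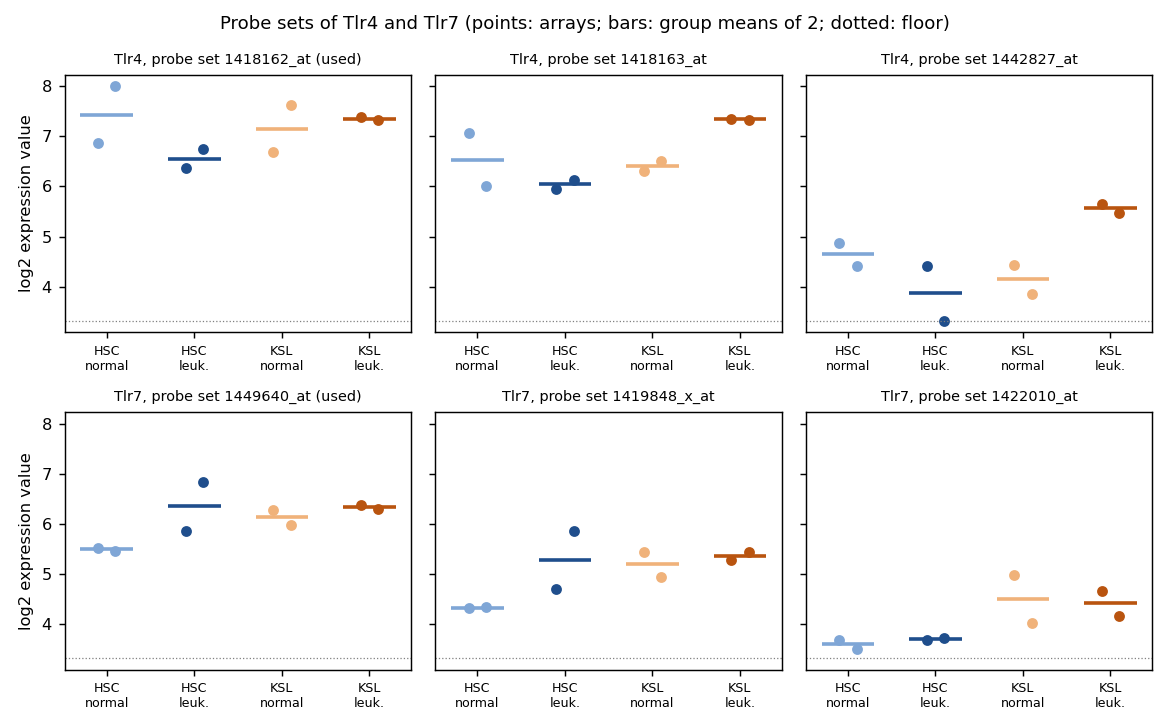
Log2 expression values (vertical axis) of 3 probe sets each of Tlr4 (top) and Tlr7 (bottom) by group on the horizontal axis; points are arrays, bars are means of 2 arrays and the dotted line is the floor. The brightest Tlr4 probe set overlaps between the KSL groups while the other 2 place KSL leukemic above KSL normal, and the third Tlr7 probe set stays between 3.50 and 3.73 in HSC.

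Other genes of the pathway were read from a list of 44, of which 38 were measured. Between HSC and KSL of normal mice 1 of 38 passed, where 1.8% of all genes passed, with 14 higher and 23 lower in all. This was Unc93b1, the chaperone that carries nucleic-acid receptors to endosomes. It was at 7.48 and 7.64 in HSC against 9.18 and 9.26 in KSL and so lower in HSC (-1.66 ± 0.21, adjusted p = 0.0435). Sigirr, the gene of an inhibitory receptor, was at 9.41 and 9.15 in HSC against 8.45 and 8.31 in KSL (0.90 ± 0.17, adjusted p = 0.0959). Hsp90b1, the gp96 chaperone of Toll-like receptors, differed by -0.79 ± 0.18 (adjusted p = 0.13). In leukemic mice 3 of 38 passed, where 5.86% of all genes passed, with 15 higher and 22 lower in all. The Tlr2 and Tlr4 adaptor Tirap was at 4.46 and 4.87 in HSC against 6.83 and 6.45 in KSL (-1.97 ± 0.31, adjusted p = 0.0408), while its second probe set differed by -0.69. Sigirr was higher in HSC (1.59 ± 0.17, adjusted p = 0.0198). The kinase gene Map3k7 (TAK1) was lower in HSC (-1.20 ± 0.13, adjusted p = 0.019), but its 6 probe sets disagreed, with differences from -1.20 to 0.08. None of these 4 calls held in a fit of only the 4 arrays compared. Without any 1 KSL array 0 of 38 passed in either comparison, and without either HSC normal array 0 passed in normal mice.

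Between leukemic and normal mice 0 of 38 passed in HSC and 0 in KSL, with medians of -0.04 and -0.03. At an unadjusted p under 0.05 there were 10 in HSC, beside 13.8% of all genes, and 3 in KSL, beside 7.95%. The smallest p-values in HSC were those of Map3k7, at 8.49 and 8.74 against 9.86 and 9.62 (-1.13 ± 0.13, adjusted p = 0.0937; its 6 probe sets gave -1.25 to -0.35), and the TAK1-binding gene Tab2 (0.55 ± 0.09, adjusted p = 0.141). In KSL they were those of Irf7 (-0.59 ± 0.19, adjusted p = 0.536) and Sigirr (-0.53 ± 0.17, adjusted p = 0.543). Ly96 (MD-2), the partner of Tlr4 as Ly86 is of Cd180, was chosen after its values were seen. It was at 4.94 and 4.22 in HSC leukemic against 5.95 and 5.54 in HSC normal (-1.17 ± 0.31, adjusted p = 0.236), while in HSC Ly86 had its higher values in leukemic mice. In KSL the means of both were lower in leukemic mice (Ly96 -0.76, Ly86 -0.26). Tlr8, the neighbour of Tlr7, was at the floor on all 8 arrays. In the interaction, 0 of 38 passed limma's threshold and 8 had an unadjusted p under 0.05, beside 9.09% of all genes. These were led by Map3k7 (-1.20 ± 0.18, adjusted p = 0.235) and Tab2 (0.67 ± 0.13, adjusted p = 0.313).

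Genes induced by Toll-like receptor signalling, a list of 18, had medians of 0.03 in HSC and -0.19 in KSL between leukemic and normal mice. Limma passed 0 of them in both, with 2 and 3 at an unadjusted p under 0.05, beside 13.8% and 7.95% of all genes. Interleukin genes Il6 and Il1a were at the floor on all 4 HSC arrays, and Il12b overlapped between the HSC groups. Il1b, of the same list, was named outside the rule given below for naming genes. It was at 7.19 and 6.13 in HSC leukemic against 5.35 and 5.72 in HSC normal (1.13 ± 0.49, limma adjusted p = 0.418). The feedback inhibitor Socs3, which many cytokines also induce, was at 8.49 and 8.88 in HSC leukemic against 7.11 and 6.87 in HSC normal (1.70 ± 0.16, adjusted p = 0.0819), and in KSL at 7.32 and 7.35 against 6.27 and 6.17 (1.12 ± 0.16, adjusted p = 0.215). Of its 3 probe sets the dimmest differed by 0.11 in HSC and 1.58 in KSL. Nos2 differed by 0.39 ± 0.06 in HSC (adjusted p = 0.141) and the chemokine gene Ccl4 by -1.27 ± 0.43 in KSL (adjusted p = 0.576).

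Between the fractions of leukemic mice 2 of the 18 response genes passed, where 5.86% of all genes passed. Both were higher in HSC, Socs3 (1.35 ± 0.16, adjusted p = 0.0231, with -0.15 for its dimmest probe set) and Nos2 (0.45 ± 0.06, adjusted p = 0.0329). In normal mice 0 of 18 passed limma's threshold and 8 had an unadjusted p under 0.05, beside 16.2% of all genes. Tnf was at 4.96 and 4.54 in HSC against 5.73 and 5.97 in KSL there (-1.10 ± 0.19, adjusted p = 0.0806), and the chemokine gene Ccl5 at 5.80 and 4.92 against 8.21 and 8.98 (-3.23 ± 0.53, adjusted p = 0.0749). In the interaction 0 of 18 passed limma's threshold and 2 had an unadjusted p under 0.05, beside 9.09% of all genes. These were Nos2 (0.29 ± 0.09, adjusted p = 0.462) and Socs3 (0.58 ± 0.22, adjusted p = 0.549).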

How the data were processed

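Total RNA of 8 sorted samples was measured on Affymetrix arrays, and the authors deposited 1 table of log2 values for 45101 probe sets, made with RMA per the submitters' processing notes; the step behind the floor at 10.0 (linear scale) is not given in the sources used here. Groups came from the titles, and for KSL leukemic from the disease state label, since those titles carry both wordings; sample descriptions, which mention embryos, were set aside, and the labels and design text name different amplification methods. A gene was read from its brightest probe set with a single symbol, which gave 18193 genes, with no filter on dim genes. The fit used limma 3.58.1 under R 4.3.3 on these log2 values (4 group means, all 8 arrays, 4 residual degrees of freedom, two-sided, called at an adjusted p under 0.05), a fit checked on simulated data; all 5 contrasts were adjusted separately. The number of arrays limits the precision. Members, gene lists and tests were chosen with earlier results of these data known, so no p was adjusted over a list alone. All members are named; of the pathway and response lists, up to 4 called genes by size or, with fewer than 2 called, the 2 with the smallest p; of a marker list, the 3 brightest genes; and the 3 nearest genes of members whose SD over the arrays is at least 1. Named outside this rule were Ly96, Tlr8, Il1b, Il6, Il1a and Il12b of the pathway and response lists. So were Ms4a1, Adgre1, Ncr1, Gzma, Fcgr3 and Slamf1 of the marker lists. Promoter windows came from RefSeq, and their orientation was checked on 1687 overlapping pairs. Alternatives left out arrays, changed normalization, filters, probe sets, array weights, variance model and block, or treated the male arrays apart.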

Additional observations from a re-analysis of the deposited data

Results flagged for a closer look

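Cd180 and Tlr2 stood out because the difference between leukemic and normal mice ran in opposite directions in HSC and KSL, with both arrays of each leukemic group beyond both normal arrays. For Cd180 the HSC difference minus the KSL difference was 2.52 on the log2 scale, and for Tlr2 it was -1.85. With 1 array left out it ranged from 2.08 to 2.95 for Cd180 and from -2.25 to -1.45 for Tlr2. Without the male HSC normal array the Tlr2 difference in HSC was -0.54. Neither passed limma's interaction test after adjustment (0.313 and 0.376 as adjusted p), and 6.08% of all genes showed arrays apart in opposite directions.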

How the results depend on the processing

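Of 925 checks of a member's difference under another setting, 848 kept direction and side of the threshold, 35 kept direction and lost the call, 8 gained one and 34 turned direction. Most checks were of differences not called in the report, so the count that kept their side says little about the calls. All lost calls came from the differences called there: Ly86 between the fractions of normal and of leukemic mice, and Tlr1 and Tlr2 in leukemic mice. The direction held in every setting run for 7 of 10 members in each of the 4 differences and for 6 in the interaction.

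Members called between HSC and KSL in normal mice, 1 in the report, were 2 when genes with any array at the floor were dropped, 2 without the lowest 40% of genes (fewer genes were tested; Cd180 was added), and 0 without the male arrays or in a fit of only the 4 arrays compared. In leukemic mice the 3 became 1 when the male arrays had their own term. They became 0 in the fit of 4, and leaving out the male arrays is the same test there. Which members passed there also changed: Cd14 passed with arrays shifted to a common median and when genes with a floor value were dropped (adjusted p = 0.0272), a step that removes Tlr1 from the test, and Tlr1 did not pass with array weights (0.0977). Of the pathway list, the 1 call in normal mice became 0 with the male-array term, without the male arrays and in the fit of 4. The 3 calls in leukemic mice became 1 with array weights and 0 in the fit of 4, again the same test as without the male arrays. The cause of these changes was not tested.

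With 1 array left out, members called ranged from 0 to 1 between leukemic and normal HSC, from 0 to 1 between the fractions of normal mice and from 0 to 2 in leukemic mice. Pathway calls ranged from 0 to 2, from 0 to 1 and from 0 to 4. A group left with 1 array was assumed to vary like the others.

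Deviations of same-numbered replicates had r over genes from -0.04 to 0.09, under the level set for pairing, so the numbers were not taken to pair the samples, although replicate 1 was the male array in both normal groups. With the replicate block 0 members (Ly86, adjusted p = 0.0512) and 0 pathway genes passed between the fractions of normal mice, and 1 member (Cd14, adjusted p = 0.0442) and 1 pathway gene in leukemic mice.

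Turned directions were as follows. With all probe sets averaged, Tlr7 between the fractions of leukemic mice was -0.25. With a male-array term, leukemic minus normal HSC was -0.12 for Tlr1 and 0.058 for Cd14, and KSL was -0.32 for Tlr4 and 0.25 for Cd14. Without those arrays Myd88 in HSC was -0.20, KSL gave -0.10 for Tlr1, -0.27 for Tlr4 and 0.37 for Cd14, and the interaction gave 0.15 for Tlr1 and 0.10 for Tlr6. With 1 array left out, leukemic minus normal HSC ranged from -0.080 to 0.34 for Tlr1, from -0.20 to 0.95 for Myd88 and from -0.79 to 0.00070 for Cd14. In KSL it ranged from -0.10 to 0.76 for Tlr1, from -0.27 to 0.67 for Tlr4 and from -0.78 to 0.37 for Cd14. HSC minus KSL in normal mice ranged from -0.78 to 0.030 for Tlr2, from -0.29 to 0.85 for Tlr4 and from -0.27 to 0.89 for Myd88. In leukemic mice it ranged from -0.47 to 0.50 for Tlr7, from -0.13 to 0.40 for Tlr9 and from -0.51 to 0.086 for Myd88. The interaction ranged from -0.63 to 0.23 for Tlr1, from -0.32 to 0.13 for Tlr6, from -1.10 to 0.058 for Myd88 and from -0.76 to 0.38 for Cd14.

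Signal limits Tlr1, which is at the floor on 2 of 4 HSC arrays, and Ly86, whose HSC normal values lie near it.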
